A study of Mus musculus with 6 samples.

Results

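The T cell receptor complex and its CD8 coreceptor are the surface machinery through which a killer T cell recognises its target. They were followed here through 9 genes, chosen by name, of 27480 in the deposited table. The genes are Cd3d, Cd3e and Cd3g, Cd247 (the zeta chain), Trac, Trbc1 and Trbc2 (the constant regions of the receptor's alpha and beta chains), and Cd8a and Cd8b1. All 9 had a row in the table and all 9 passed the filter on low counts, so none was left out.

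RNA came from mouse OT1 CD8+ T cells, which carry a transgenic receptor for a peptide of ovalbumin (OVA), in 6 bulk RNA-seq libraries. All cells were of genotype WT and were exposed to the OVA peptide over 48 h. Cells of 3 libraries carried an overexpression vector (vector 1 to 3), and cells of the other 3 carried a PTMA overexpression construct (PTMA 1 to 3). PTMA is prothymosin alpha, a small acidic nuclear protein, and the series title places the comparison in the question of how it bears on mitochondria and persistence of CD8+ T cells. The labels used here give no age, strain, vector type or species of the PTMA insert, and do not say whether replicates came from separate animals or cultures. P-values therefore set a group difference only against the scatter between these libraries, and that scatter may be technical.

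As background, the alpha and beta chains of the receptor form the pair that binds a peptide held by a major histocompatibility complex (MHC) molecule. This pair has almost no signalling tail of its own. It is held at the surface by CD3 chains, gamma with epsilon and delta with epsilon, and by a pair of zeta chains, whose tails carry the tyrosine motifs that the kinase Lck phosphorylates and the kinase ZAP-70 binds. The CD8 alpha and beta chains bind class I MHC and bring Lck to the receptor. After stimulation the receptor is drawn into the cell and partly degraded, a process that RNA counts do not show.

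None of the 9 transcripts passed the test between PTMA and vector libraries. Fold changes in scaled counts ran from 0.919 for Cd3e to 1.08 for Cd8a, and every 95% interval held a ratio of 1. The widest bounds were a fold of 0.798 (lower bound, Cd3e) and 1.22 (upper bound, Cd3g). The transcripts did vary between libraries within a group. Of the 9, 8 were low in vector 1 and vector 2 and high in vector 3, and Cd3e ran the other way.

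Total counts ran from 54989408 to 66767589 per library. Ptma itself, the targeted gene, stood at 848, 783 and 1146 CPM (counts scaled to a common library size, after TMM correction for library composition) in vector 1 to 3 and at 1152, 1346 and 1272 CPM in PTMA 1 to 3. Its groups did not overlap, vector 3 lay close below PTMA 1, and it did not pass the test (log2 fold change 0.44, SE 0.13, edgeR adjusted p = 0.951). Ptma has near-identical processed pseudogenes, so its counts are uncertain. The T cell label was checked against Ptprc, Thy1, Cd2, Cd5, Lck, Cd27 and Cd28, whose summed level was 5277 to 5430 CPM with the vector and 5299 to 5467 CPM in the PTMA libraries. Among markers of other cells, Cd4 lay at 0.18 to 1.19 CPM, Foxp3 at 0.09 to 0.29 CPM, Csf1r at 0 to 0.10 CPM and Rag1 at 0 to 0.03 CPM. Others in these lists were higher, with Ighm at 917 to 1017 CPM, Pecam1 at 196 to 214 CPM, Ctla4 at 106 to 130 CPM, Ikzf2 at 88.7 to 135 CPM, Trdc at 36.0 to 45.5 CPM and H2-Ab1 at 26.1 to 35.0 CPM. Summed levels of 2 marker lists for other cells did not overlap between groups, while those of the remaining lists did. Of all single genes tested, 10.8% did not overlap. The oocyte list, whose member Gdf9 passed the test, stood at 24.4 to 34.6 CPM in the vector libraries and at 1.56 to 4.34 CPM in the PTMA libraries. Because the lists were chosen with earlier results of these data known, this difference is a description and not an independent check. The myeloid and dendritic list, with 8 of 10 names in the table, stood at 46.5 to 52.4 CPM and at 53.4 to 63.0 CPM, mostly from H2-Ab1. Each of its 6 tested members overlapped between groups when taken alone. Itgax was lower with PTMA (means of 3.38 CPM with the vector and 2.75 CPM with PTMA). The part of either list in the values of the receptor genes was not tested. In bulk RNA, fewer cells of a type and less RNA per cell cannot be told apart.

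The CD3 chain genes lie side by side on chromosome 9 (coordinates as listed in the table, on GRCm38). Cd3g (ENSMUSG00000002033, minus strand) spans 44969572 to 44980431. Cd3d (ENSMUSG00000032094, plus strand) spans 44981786 to 44987339, so their starts face each other across 1354 bases. Cd3e (ENSMUSG00000032093, minus strand) spans 44998740 to 45009622. RefSeq (build GRCm38.p6) gave promoter windows, 300 bases around a start, for 5 of the 9 genes. The windows of the CD3 chains are shown because Cd3d and Cd3g moved together from library to library while Cd3e moved against them. Cd3e moved against the rest of the 9 as well. Capitals mark GGAA on either strand, the core that ETS family factors recognise.
Cd3d, chr9:44981536-44981835, plus strand: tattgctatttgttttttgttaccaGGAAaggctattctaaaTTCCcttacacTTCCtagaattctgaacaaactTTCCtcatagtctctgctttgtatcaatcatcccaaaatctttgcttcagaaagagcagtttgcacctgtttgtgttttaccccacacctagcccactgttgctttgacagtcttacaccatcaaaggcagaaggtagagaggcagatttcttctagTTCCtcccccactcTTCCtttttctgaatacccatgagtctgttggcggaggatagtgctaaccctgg
Cd3g, chr9:44980382-44980681, minus strand: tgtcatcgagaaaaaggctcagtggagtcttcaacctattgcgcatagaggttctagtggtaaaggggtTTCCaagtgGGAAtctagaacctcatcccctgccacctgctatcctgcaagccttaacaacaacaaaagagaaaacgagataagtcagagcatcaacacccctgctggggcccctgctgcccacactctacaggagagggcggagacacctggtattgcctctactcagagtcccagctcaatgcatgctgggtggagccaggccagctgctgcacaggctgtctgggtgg
Cd3e, chr9:45009562-45009861, minus strand: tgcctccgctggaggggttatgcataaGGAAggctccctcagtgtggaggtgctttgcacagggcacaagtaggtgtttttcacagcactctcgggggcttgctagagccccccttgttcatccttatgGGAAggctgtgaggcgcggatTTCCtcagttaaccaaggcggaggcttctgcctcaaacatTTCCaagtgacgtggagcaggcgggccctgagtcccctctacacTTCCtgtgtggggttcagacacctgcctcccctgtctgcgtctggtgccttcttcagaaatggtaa

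GGAA matched 6 times in the Cd3d window, 2 times in the Cd3g window and 5 times in the Cd3e window, against a median of 3 over 32851 promoter windows, of which 96.0% held at least 1 match. The E-box CANNTG matched 1 time for Cd3d, 4 times for Cd3g and 2 times for Cd3e, and was present in 72.3% of all windows. One E-box match overlapped a GGAA match in the Cd3g window and 1 did so in the Cd3e window. The GATA motif AGATAA (11.2% of windows) matched 1 time for Cd3g and not for the other two. TATAAA (13.6% of windows) and the RUNX motif TGTGGT (16.8% of windows) matched none of the 3. All motifs were searched on both strands. GC content was 42.3% for Cd3d, 54.0% for Cd3g and 56.7% for Cd3e, against a median of 52.7%. These matches are a description of letters and show no binding, and their part in the values of the 3 genes was not tested.

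Cd3g encodes the gamma chain, which pairs with epsilon. It stood at 881, 862 and 1114 CPM in vector 1 to 3 and at 979, 1055 and 934 CPM in PTMA 1 to 3. Vector 3 was the highest library and vector 1 and 2 the lowest, so the PTMA libraries lay inside the vector range. The log2 fold change, PTMA minus vector, was 0.05 (SE 0.10, 95% interval -0.18 to 0.29, edgeR quasi-likelihood test, adjusted p = 0.966). Of all 16592 genes tested, 2 passed at an adjusted p of 0.05, 0.0121%, and of the 9 receptor and coreceptor genes 0 did.

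Cd3d encodes the delta chain, the other partner of epsilon. It stood at 846, 795 and 993 CPM in vector 1 to 3 and at 897, 959 and 869 CPM in PTMA 1 to 3. The order of the libraries was close to that of Cd3g, with vector 3 highest and vector 2 lowest, and the groups overlapped. The log2 fold change was 0.05 (SE 0.09, 95% interval -0.15 to 0.25, edgeR, adjusted p = 0.964).

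Cd3e encodes epsilon, the chain shared by both CD3 pairs. It stood at 824, 796 and 694 CPM in vector 1 to 3 and at 783, 657 and 686 CPM in PTMA 1 to 3. Vector 1, vector 2 and PTMA 1 were the high libraries and PTMA 2 the lowest, and the groups overlapped because vector 3 lay among the PTMA libraries. The log2 fold change was -0.12 (SE 0.09, 95% interval -0.33 to 0.08, edgeR, adjusted p = 0.951), the lowest value of the 9. Without vector 3 it was -0.19 (edgeR adjusted p = 0.295) and without PTMA 2 it was -0.07 (edgeR). In GENCODE M21, the annotation used here for exons, 3 of 4 Cd3e transcripts are of the retained-intron type. An antisense gene, Gm48719, shares 135 exonic bases with Cd3e, and the use of strand in the counting is not given in the sources used here.

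Cd247 (ENSMUSG00000005763, chromosome 1, 165788681 to 165871153, plus strand) encodes zeta, the chain with the longest signalling tail of the complex. It stood at 307, 297 and 314 CPM in vector 1 to 3 and at 317, 315 and 314 CPM in PTMA 1 to 3. The lowest PTMA library, PTMA 3, lay just above the highest vector library, vector 3, at 314.49 against 314.45 CPM. Cd247 was the 1 gene of the 9 (11.1%) whose groups did not overlap, with PTMA higher. Over all genes tested the share was 10.8%, made up of 5.39% higher and 5.38% lower with PTMA. The log2 fold change was 0.04 (SE 0.06, 95% interval -0.09 to 0.18, edgeR, adjusted p = 0.956). It was the steadiest of the 9, and of 2364 genes with a mean of at least 100 CPM only 2.24% had a smaller range over the 6 libraries. Its exons share 3007 bases with Pou2f1 on the opposite strand and 206 bases with Gm16565 on the same strand, so reads there could not be assigned with certainty.

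The beta chain has alternative constant regions, Trbc1 and Trbc2, of which a rearranged beta gene uses one. Trbc1 (ENSMUSG00000076490) spans 41538218 to 41539881 and Trbc2 (ENSMUSG00000076498) spans 41546730 to 41548352, both on the plus strand of chromosome 6. Their counts are uncertain because the sequences are nearly the same, and how the authors treated reads with several matches is not given in the sources used here. Over the first 3 coding exons of the GENCODE M21 transcripts, 500 bases, they differed at 19 positions (96.2% identity). In exon 1, of 375 bases, they differed at 1 position, C260A, counted from 1 at the first base of the constant region with the Trbc1 base first. The stretch around that base and the stretch that holds the other 18 differences are shown, since only these bases can tell the transcripts apart in the coding exons compared. Capitals mark bases that differ.
Trbc1, positions 241 to 280: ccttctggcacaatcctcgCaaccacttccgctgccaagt
Trbc2, positions 241 to 280: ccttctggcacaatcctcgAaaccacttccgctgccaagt
Trbc1, positions 361 to 500: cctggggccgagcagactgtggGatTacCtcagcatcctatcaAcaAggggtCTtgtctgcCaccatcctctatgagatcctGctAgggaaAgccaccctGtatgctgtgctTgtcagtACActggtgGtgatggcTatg
Trbc2, positions 361 to 500: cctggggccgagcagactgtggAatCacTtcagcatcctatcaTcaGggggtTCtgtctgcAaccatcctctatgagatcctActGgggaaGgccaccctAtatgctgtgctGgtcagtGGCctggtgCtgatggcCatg

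Of all windows of 100 bases in these exons, 45.6% were the same in both genes, and of windows of 150 bases 31.3% were. Such windows stand for stretches in which a read could not be assigned to 1 gene.

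**Figure D1:**
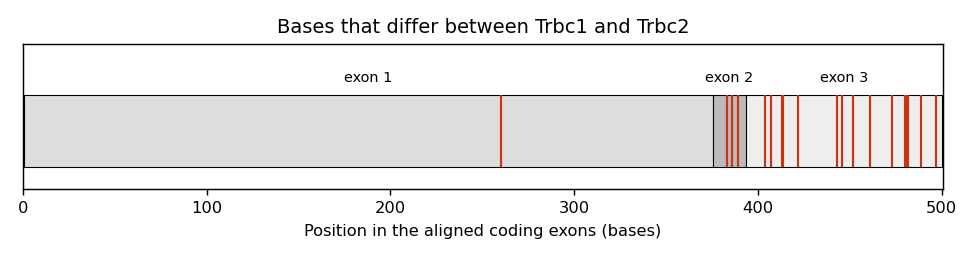
Positions that differ between Trbc1 and Trbc2 along the 500 bases of coding exons 1 to 3. The x axis is the position in the alignment in bases, grey boxes are exons and red lines are the 19 differing bases. Only 1 line falls in exon 1 and 18 fall in exons 2 and 3.

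Trbc2 stood at 3120, 3200 and 3563 CPM in vector 1 to 3 and at 3233, 3514 and 3376 CPM in PTMA 1 to 3. Trbc1 stood at 1385, 1288 and 1478 CPM in vector 1 to 3 and at 1346, 1447 and 1431 CPM in PTMA 1 to 3. For both genes vector 3 was the highest library and the groups overlapped. The difference on the log2 scale, PTMA minus vector, was 0.03 for Trbc2 (SE 0.07, 95% interval -0.12 to 0.19, edgeR, adjusted p = 0.967) and 0.03 for Trbc1 (SE 0.07, 95% interval -0.13 to 0.18, edgeR, adjusted p = 0.977). With both genes summed before the fit, which removes the question of how reads were split between them, it was 0.03 (SE 0.07, 95% interval -0.12 to 0.18, edgeR, adjusted p = 0.971). The share of Trbc1 in the summed counts stood at 30.7%, 28.7% and 29.3% in vector 1 to 3 and at 29.4%, 29.2% and 29.8% in PTMA 1 to 3.

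Trac (ENSMUSG00000076928, chromosome 14, 54220521 to 54224206, plus strand) encodes the constant region of the alpha chain. It stood at 511, 479 and 585 CPM in vector 1 to 3 and at 541, 533 and 498 CPM in PTMA 1 to 3. Vector 3 was again highest and vector 2 lowest, with all 3 PTMA libraries between them. On the log2 scale PTMA minus vector was -0.00 (SE 0.08, 95% interval -0.19 to 0.18, edgeR, adjusted p = 0.996), the value closest to 0 of the 9. The labels do not say how transcripts of the OT1 receptor transgene fall on the Trac and Trbc rows.

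Cd8a and Cd8b1 encode the chains of the coreceptor that holds class I MHC. Cd8a (ENSMUSG00000053977) spans 71373427 to 71379169 and Cd8b1 (ENSMUSG00000053044) spans 71322788 to 71337494 on the plus strand of chromosome 6. Cd8a stood at 607, 598 and 638 CPM in vector 1 to 3 and at 682, 674 and 634 CPM in PTMA 1 to 3. PTMA 1 and PTMA 2 were above every vector library, but PTMA 3 was below vector 3, so the groups overlapped. Between groups the log2 fold change was 0.11 (SE 0.06, 95% interval -0.03 to 0.25, edgeR, adjusted p = 0.951), the highest value and the smallest unadjusted p (0.104) of the 9.

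Cd8b1 stood at 535, 528 and 594 CPM in vector 1 to 3 and at 601, 574 and 548 CPM in PTMA 1 to 3. PTMA 1 and vector 3 were highest, and the groups overlapped. PTMA minus vector came to a log2 fold change of 0.06 (SE 0.07, 95% interval -0.10 to 0.21, edgeR, adjusted p = 0.955).

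**Figure D2:**
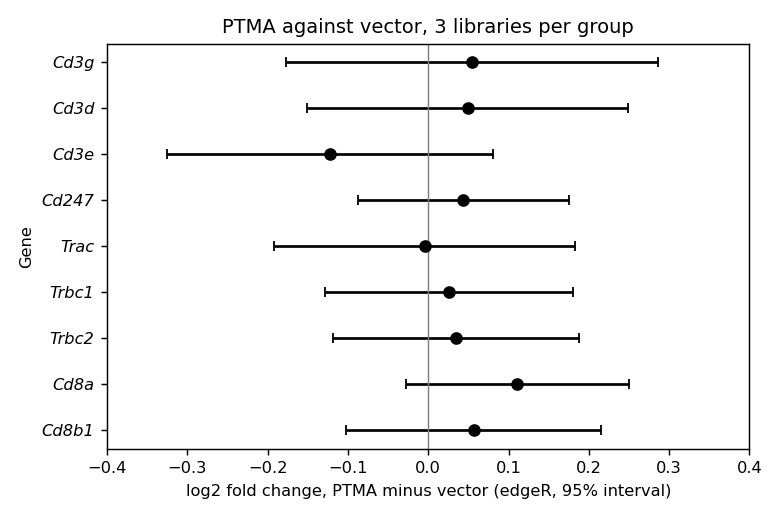
Log2 fold change of the 9 transcripts, PTMA minus vector, from edgeR with 3 libraries per group. Points are estimates and bars are 95% intervals. The points lie between -0.12 (Cd3e) and 0.11 (Cd8a) and every bar crosses 0.

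As a group, 7 of the 9 had positive and 2 negative log2 fold changes, with a median of 0.04, beside 7764 positive and 8828 negative and a median of -0.01 over all genes tested. Genes grouped by exon length also differed in their library medians (values below). The part of length in the median of the 9 was not tested. None of the 9 had an unadjusted p under 0.05 in edgeR, where 4.65% of all genes did, and DESeq2 and limma likewise passed 0 of the 9 after adjustment. With single libraries left out, Cd3e stayed negative and Cd247, Cd8a and Cd8b1 stayed positive. The other signs did not hold: Cd3d (-0.01), Cd3g (-0.00) and Trbc1 (-0.01) turned negative without vector 2. Trbc2 (-0.00) did so without vector 1, and Trac turned positive without vector 3 (0.08) or PTMA 3 (0.05). Together the 9 genes took 0.935% ± 0.041 of all counts in the vector and 0.937% ± 0.013 with PTMA (SD, n = 3 each).

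Levels between genes can be compared only per length, and the deposited FPKM (fragments per kilobase of exon, scaled to library size) give that scale. Trbc2 was highest at 4012 to 4518 FPKM over the 6 libraries, the second highest of all rows. Trbc1 followed at 1616 to 1738 FPKM, Trac at 482 to 543 FPKM and Cd3d at 412 to 475 FPKM. Below them came Cd8b1 at 321 to 365 FPKM and Cd3g at 240 to 296 FPKM. Cd3e at 143 to 183 FPKM and Cd8a at 148 to 169 FPKM overlapped, so their order does not hold beyond the spread. Cd247 was lowest at 51.2 to 53.7 FPKM, 1052nd of the 27480 rows. All other neighbours in this order had ranges that did not overlap.

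Per length, the summed beta constant regions were thus 11.2 to 12.8 times the level of the alpha constant region within a library. That ratio depends on how reads of Trbc1, Trbc2 and the OT1 transgene were counted, which is not given in the sources used here. Cd8b1 was 2.09 to 2.28 times the FPKM of Cd8a. Levels per length rest on the length used. For 98.9% of 10137 well-counted genes the deposited FPKM fitted, within 2%, the length of all exons of a gene in GENCODE M21, retained introns included. This length is 3269 bases for Cd3g and 4080 bases for Cd3e, while their longest coding transcripts have 1023 and 1462 bases. On the length of the longest coding transcript, Cd3g moved from 6th to 3rd at 766 to 945 FPKM, above Trac. On that length Cd3d (462 to 533 FPKM) and Cd3e (400 to 512 FPKM) overlapped, as did Trac and Cd3d, and Cd8b1 was 1.80 to 1.96 times Cd8a. Cd247 stayed lowest at 92.2 to 96.7 FPKM on that length. Trac (504 FPKM on average) and Trbc2 (4331 FPKM) kept their levels on it, and Trbc1 moved only from 1674 to 1702 FPKM.

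**Figure D3:**
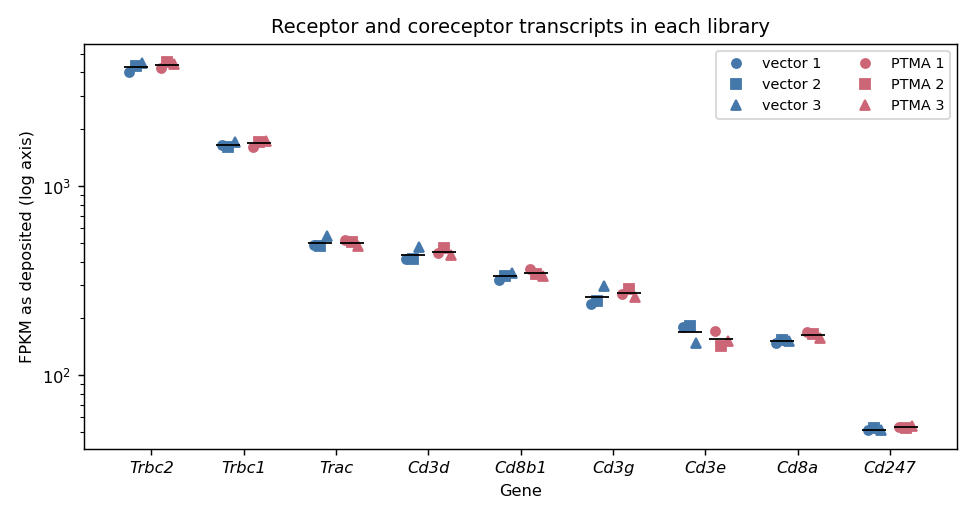
Deposited FPKM of the 9 genes in each library on a log axis, ordered by mean level. Blue symbols are vector and red symbols PTMA libraries, symbol shapes are replicate numbers, and black lines are group means. Levels run from about 4331 FPKM on average for Trbc2 to 52.4 for Cd247, and the groups of each gene lie close together.

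Ratios within a library do not depend on scaling, and 4 were computed. The Cd8a to Cd8b1 ratio of FPKM stood at 0.462, 0.461 and 0.438 in vector 1 to 3 and at 0.463, 0.479 and 0.471 in PTMA 1 to 3. All 3 PTMA libraries were above the vector libraries, PTMA 1 by less than 0.001. The log2 difference was 0.05 (95% interval -0.03 to 0.13, two-sided exact permutation test p = 0.1, adjusted over 4 ratios p = 0.4), where 0.1 is the smallest p that 3 against 3 can give. The Cd247 to Cd3e ratio stood at 0.285, 0.286 and 0.347 in vector 1 to 3 and at 0.310, 0.368 and 0.351 in PTMA 1 to 3. Vector 3 lay among the PTMA libraries, and the log2 difference was 0.17 (95% interval -0.16 to 0.50, exact permutation p = 0.2, adjusted p = 0.4).

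The Trbc1 to Trbc2 ratio of FPKM was 0.388 ± 0.020 in the vector and 0.386 ± 0.006 with PTMA (SD, n = 3 each). Its log2 difference was -0.01 (95% interval -0.13 to 0.11, exact permutation p = 0.9, adjusted p = 0.9). The Cd3d to Cd3g ratio was 1.66 ± 0.06 in the vector and 1.65 ± 0.02 with PTMA (SD, n = 3 each). Its log2 difference was -0.01 (95% interval -0.10 to 0.08, exact permutation p = 0.8, adjusted p = 0.9).

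The variation that the 9 transcripts did show ran between libraries. As log2 CPM minus the mean of the 6 libraries, 8 of 9 were below 0 in vector 1 and in vector 2, and 8 of 9 were above 0 in vector 3 and in PTMA 2. In each of these 4 libraries the exception was Cd3e. PTMA 1 had 7 above 0 and PTMA 3 had 3 above 0. Deviations of Cd3g stood at -0.13, -0.17 and 0.20 in vector 1 to 3 and at 0.02, 0.13 and -0.05 in PTMA 1 to 3. Those of Cd3e were 0.16, 0.11 and -0.09, and 0.09, -0.17 and -0.10.

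**Figure D4:**
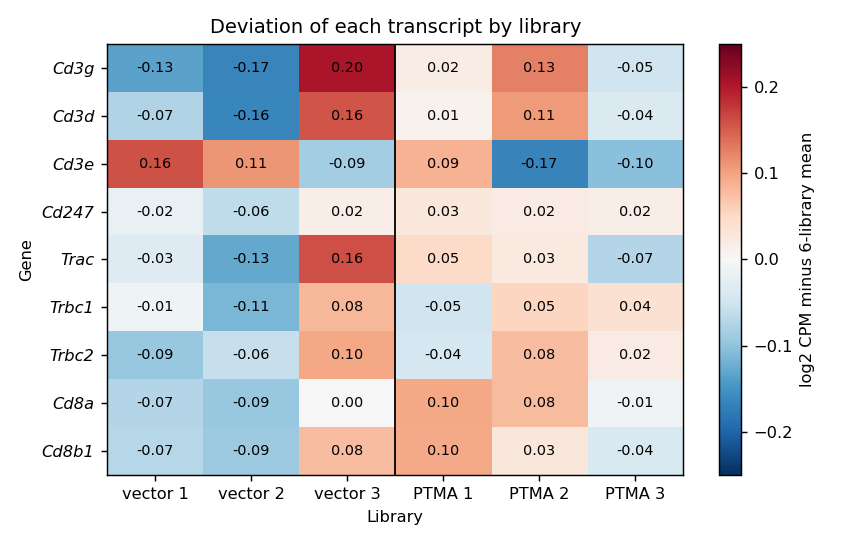
Log2 CPM of each of the 9 genes minus its mean over the 6 libraries. Rows are genes, columns are libraries with a line between vector and PTMA, and red is above and blue below the mean. Cd3e has the opposite sign to most other rows in vector 1 to 3 and in PTMA 2.

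Over the 6 libraries, the log2 CPM of Cd3d and Cd3g had a Pearson r of 0.98. All 28 pairs without Cd3e had a positive r, from 0.37 to 0.98, and all 8 pairs with Cd3e had a negative r, from -0.93 (with Trbc2) to -0.38 (with Trac). These are descriptions over n = 6 libraries, and genes measured in the same library share its depth. Among the genes outside the 9 most like their mean profile were Atp6v1b2 (r = 0.999), Grcc10 (r = 0.999), Mrpl54 (r = 0.996) and Rplp0 (r = 0.995), of 8437 candidates with a mean of at least 10 CPM. As many as 531 candidates had an r above 0.9 with that profile. Cd3e alone was matched most closely by Bcl2l1, Sertad2 and Atp8b2 (r = 0.99 each), a search added after the values of Cd3e had been seen. With Cd3e, 214 of the 8437 candidates had an r above 0.9, so these names are not particular to it.

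Medians of genes grouped by exon length also differed between the libraries. Lengths here are of all exons of a gene, retained introns included. Among genes with a mean of at least 5 CPM, the quintile with the shortest exon length (up to 2365 bases) had median deviations that stood at -0.07, -0.12 and 0.12 in vector 1 to 3 and at 0.00, 0.08 and -0.00 in PTMA 1 to 3. The quintile with the longest (7509 bases or more) had 0.07, 0.11 and -0.07, and -0.01, -0.09 and -0.01. Cd3d (1815 bases), Trac (935 bases), Trbc1 (749 bases), Trbc2 (692 bases) and Cd8b1 (1483 bases) belong to the shortest quintile. Cd3e belongs to the middle quintile (3660 to 5199 bases), whose medians stood at -0.02, -0.00 and -0.01 in vector 1 to 3 and at 0.01, 0.02 and 0.01 in PTMA 1 to 3. Cd3g (3269 bases) and Cd8a (3637 bases) belong to the next after the shortest, with medians that stood at -0.05, -0.05 and 0.02 in vector 1 to 3 and at 0.01, 0.06 and 0.01 in PTMA 1 to 3. Cd247 (5329 bases) belongs to the next after the middle, with medians that stood at 0.02, 0.03 and -0.03 in vector 1 to 3 and at -0.00, -0.01 and 0.00 in PTMA 1 to 3. Its own deviations stood at -0.02, -0.06 and 0.02 in vector 1 to 3 and at 0.03, 0.02 and 0.02 in PTMA 1 to 3. The share of mitochondrially encoded mRNA among all counts stood at 1.62%, 1.57% and 2.08% in vector 1 to 3 and at 1.56%, 1.93% and 1.95% in PTMA 1 to 3, low in the 3 libraries where Cd3e was high. The part of exon length or of mitochondrial RNA in these values was not tested.

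**Figure D5:**
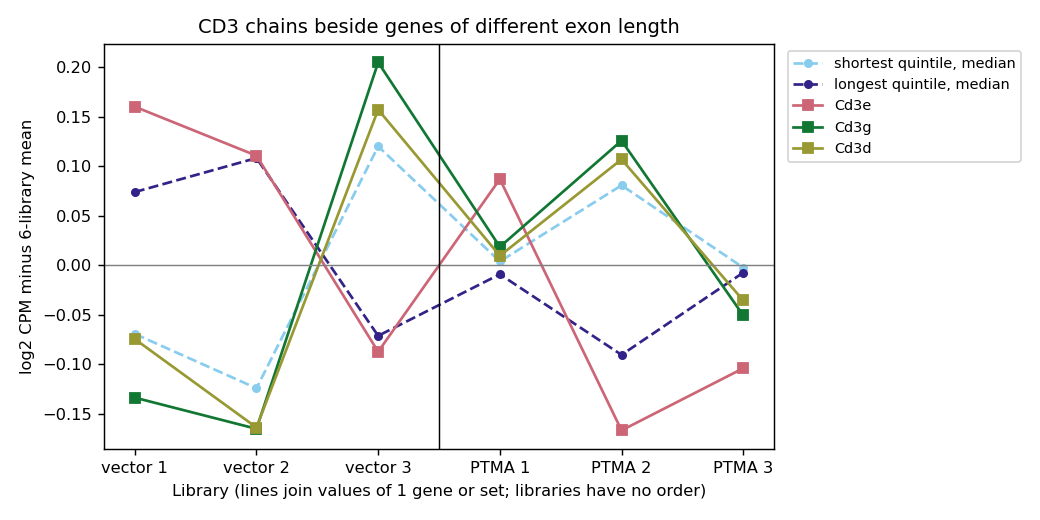
Log2 CPM minus the 6-library mean, by library, for the CD3 chains and for the medians of the shortest and longest quintiles of genes by exon length. Solid lines are single genes, dashed lines are medians, and the vertical line parts vector from PTMA. Cd3g (0.20) and Cd3d (0.16) lie above the shortest quintile (0.12) in vector 3, and Cd3e (-0.17) lies below the longest quintile (-0.09) in PTMA 2. Cd3e belongs to the middle quintile (median 0.02 in PTMA 2) and Cd3g to the next after the shortest (0.02 in vector 3). Neither of these quintiles is drawn.

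Genes that act around the receptor were read from 4 lists. Of 26 genes of proximal signalling, the kinases and adaptors that carry the signal inward, 25 were tested. None passed in either direction in edgeR or DESeq2, and the median log2 fold change was 0.02. In edgeR 1 of the 25 had an unadjusted p under 0.05, where 4.65% of all genes did. That gene was Themis, which sets signalling strength in thymocytes, at 112 ± 1.73 CPM with the vector and 98.7 ± 3.83 CPM with PTMA (SD, n = 3 each, log2 fold change -0.18, edgeR adjusted p = 0.951). The adaptor Lat stood at 344 ± 16.2 and 377 ± 26.7 CPM, and the exchange factor Vav1 at 302 ± 7.85 and 323 ± 2.40 CPM (SD, n = 3 each).

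Of 18 genes of receptor turnover and of chain assembly and disposal in the endoplasmic reticulum, all were tested. None passed in edgeR or DESeq2, and the median log2 fold change was -0.01. In edgeR 1 of the 18 had an unadjusted p under 0.05, where 4.65% of all genes did. The ubiquitin ligase Itch stood at 76.1 ± 10.1 CPM with the vector and 64.0 ± 1.93 CPM with PTMA (SD, n = 3 each, edgeR adjusted p = 0.951). The folding chaperones Calr, at 347 ± 14.9 and 382 ± 11.6 CPM, and Canx, at 330 ± 9.05 and 309 ± 2.92 CPM (SD, n = 3 each), had values in opposite directions.

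Of 18 transcription factors known at the receptor, CD3 or CD8 loci, all were tested and none passed in edgeR or DESeq2, with 3 of 18 at an unadjusted p under 0.05 in edgeR, where 4.65% of all genes were. The median log2 fold change was -0.06, beside -0.01 for all genes, with 14 values negative and 4 positive. Exon length, by which library medians differed as given above, was not compared for this list, and its part in the median was not tested. The list's median was -0.14 without vector 3 and -0.03 without vector 2. Bcl11b, a factor needed for T cell identity, stood at 110 ± 17.7 CPM with the vector and 89.2 ± 3.19 CPM with PTMA (SD, n = 3 each, log2 fold change -0.30, SE 0.11, edgeR adjusted p = 0.951). The ETS family factor Elf1 stood at 287 ± 5.42 and 262 ± 3.09 CPM, and the chromatin organiser Satb1 at 604 ± 44.8 and 535 ± 32.4 CPM (SD, n = 3 each).

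The list of chains that belong to other T cells had 6 of 12 names with a row, all tested. None passed in edgeR or DESeq2, and in edgeR 0 had an unadjusted p under 0.05, where 4.65% of all genes did. The median log2 fold change was 0.05. That median was -0.14 without vector 1, -0.18 without PTMA 2 and 0.16 without vector 3. Without PTMA 1 or PTMA 3 it was 0.11. Cd4, the coreceptor for class II MHC, had 12 to 77 counts per library. Constant regions of the gamma chain were low, with Trgc1 at 0.20 to 0.70 CPM, Trgc2 at 0.81 to 1.22 CPM and Trgc4 at 0.59 to 1.32 CPM, while 3 counts are worth 0.0449 to 0.0546 CPM. Fcer1g, a signalling chain related to zeta, stood at 1.22 to 2.61 CPM. Trdc, the constant region of the delta chain, was an exception in level at 36.0 to 45.5 CPM, with 40.9 ± 4.06 CPM with the vector and 40.5 ± 4.01 CPM with PTMA (SD, n = 3 each).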

How the data were processed

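The authors deposited 1 table with raw counts per gene and library, not normalized, per the file headers. It also holds FPKM made by the authors, per the file headers. Per the submitters' processing notes, HISAT2 2.0, StringTie 1.3.0, Bowtie 0.12.2 and build mm8 are named without a stated role. Which program counted reads, whether strand was used and how multiple matches were handled is not given in the sources used here. Coordinates in the table are those of GRCm38: of 27405 identifiers found in GENCODE M21, 99.7% share a start or end with it.

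Counts of all 6 libraries (54989408 to 66767589) were fitted with edgeR 4.0.16 in R 4.3.3. Settings were TMM scaling, filterByExpr (minimum count 10, leaving 16592 genes), group as the only term, the quasi-likelihood test and Benjamini-Hochberg adjustment over all genes at 0.05. Intervals are 95%. Those of within-library ratios use the pooled SD of log2 FPKM ratios. Correlations and deviations use log2 CPM with a prior count of 2. Precision of these abundant genes is set by the spread between libraries, not by counting error. Alternatives were other scalings, no filter, robust edgeR, a replicate block, each library left out, DESeq2 1.42.0, and limma 3.58.1 on log2(FPKM + 1) or log2(FPKM + 0.1) with a floor of 1 on the mean FPKM or none. The fit was tested on simulated data. Replicates differed by a chi-square of 17.7 to 84.8 per gene and none was a duplicate.

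The 9 genes, the lists and the rules were chosen with earlier results of these data known. Named genes are the 9, the 3 of each list with the smallest p, the 5 most like their mean profile, Ptma and defining markers, of which some are not reported here.

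Marker lists were summed in CPM (vector, then PTMA): CD4 and regulatory T 227 to 257 and 235 to 245, gamma-delta T 40.3 to 48.0 and 40.1 to 49.4, and immature thymocyte 0 to 0.196 and 0 to 0.184. NK cells had 11.2 to 13.8 and 12.5 to 14.7, and B cells 921 to 995 and 951 to 1023, nearly all Ighm. Myeloid and dendritic markers had 46.5 to 52.4 and 53.4 to 63.0, and stroma and epithelium 209 to 228 and 216 to 228.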

Additional observations from a re-analysis of the deposited data

How the results depend on the processing

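In every alternative, edgeR, DESeq2 or limma, 0 of the 9 genes passed the threshold, and 0 genes passed in each of the 4 lists under the alternatives run for them. Of 146 log2 fold changes of the 9 genes under an alternative, 132 kept their direction and 14 turned, the furthest from 0 being Trac at 0.082 without vector 3. Trac turned positive with median-of-ratios scaling (0.000748), no filter (0.00514), DESeq2 (0.00927), limma on log2(FPKM + 1) with and without a filter (0.00101 both), limma on log2(FPKM + 0.1) (0.00101) and the replicate block (8.43e-06). Trbc1 was -0.000697 with libraries scaled to the same sum. With each library left out in turn, values ran from -0.057 to 0.082 for Trac, -0.014 to 0.077 for Trbc1, -0.0031 to 0.096 for Trbc2, -0.0085 to 0.15 for Cd3d and -0.0033 to 0.18 for Cd3g. It gave -0.20 to -0.07 for Cd3e, 0.03 to 0.06 for Cd247, 0.09 to 0.16 for Cd8a and 0.02 to 0.11 for Cd8b1. The log2 ratio difference was then -0.040 to 0.031 for Trbc1 to Trbc2 and -0.034 to 0.019 for Cd3d to Cd3g, both of which crossed 0. It was 0.03 to 0.07 for Cd8a to Cd8b1 and 0.11 to 0.26 for Cd247 to Cd3e. Over all genes, calls numbered 2, against 0 with no filter, 43 with DESeq2, 1 with limma on log2(FPKM + 1), 1 with limma on log2(FPKM + 0.1), 0 with limma and no filter, 0 with a replicate block and 0 to 4 with a library left out. With no filter more genes were tested, and for the rest the cause was not tested. Same-numbered libraries had correlations of deviations from the group mean of -0.12, -0.16 and -0.12, and differently numbered ones 0.02 to 0.10. Deviations within a group of 3 depend on each other, so these values cannot show whether same-numbered libraries were paired. The signalling list's median was 0.02 and turned to -0.00 with libraries scaled to the same sum. That scaling put the median of all genes at -0.04 in place of -0.01. The turnover list's median was -0.01, turned to 0.00 with DESeq2, was -0.04 with the same-sum scaling and ran from -0.04 to -0.01 with a library left out. Over the same left-out libraries the signalling median ran from 0.00 to 0.04, the transcription factor median from -0.14 to -0.03 and the median of chains of other T cells from -0.18 to 0.16, the last being 0.02 with the same-sum scaling and 0.08 with the replicate block. The length of the longest coding transcript and the search for genes like Cd3e alone were chosen after seeing the data.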
